A study of Mus musculus with 6 samples.

Results

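The genes described here are 35 genes of lipid synthesis, given as a list of names: the enzymes that build cholesterol, the enzymes that build and modify fatty acids, the factors that sense sterols, and the transporters that export them. A gene was measured by the probe set whose platform annotation gives only its symbol, and by the brightest such probe set over all arrays where there were several. In this way 34 of the 35 were found among 19938 genes in all, and Acat2, the thiolase that starts the pathway, had no such probe set. The 34 were 17 sterol enzymes (6 of the mevalonate steps and 11 from squalene to cholesterol), 6 genes of sterol sensing and transport, 9 fatty acid enzymes and 2 sterol exporters.

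The 6 arrays held RNA of neural stem cells cultured from wild-type female C57BL/6 embryos at embryonic day 17.5. Of these, 3 were taken at the subventricular zone along the lateral ventricle, and 3 at that along the third ventricle. All 6 cultures were grown in low-attachment dishes with the supplements N2 and B27 and with 20 ng/ml each of FGF and EGF. Both regions were thus seen only in cells cultured with growth factors and not in the tissue. The question was whether the sterol branch and the fatty acid branch differ between cultures of the third and the lateral ventricle.

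Cells make cholesterol from acetyl-CoA through mevalonate, farnesyl diphosphate, squalene and lanosterol. The transcription factor SREBP2, made from Srebf2, turns on most genes of this route when membranes run low in sterol, while SREBP1, made from Srebf1, acts more on fatty acid genes. SCAP escorts both to the Golgi, and INSIG proteins hold them back when sterol is plentiful. Sterol excess, sensed as oxysterol by the LXR receptors, raises the exporters ABCA1 and ABCG1. The developing brain takes up little cholesterol from blood and makes most of its own.

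The correlation over all genes was 0.995 between arrays of the third ventricle and 0.990 between lateral ventricle arrays 1 and 3. Lateral ventricle array 2 correlated with those at 0.980 to 0.982 only, but with the arrays of the third ventricle at 0.991. Results that rest on lateral ventricle array 2 are therefore given with and without it. As a gauge of background, the 95th percentile of 1027 olfactory receptor genes lay between 5.04 and 5.16 on the log2 scale, and all 34 members lay above it in all 6 arrays. Of 12 neural stem cell markers, all but Prom1 also did. Microglial and endothelial markers were mostly below it in every array, with 6 of 9 and 6 of 8 there, including the defining Aif1, Csf1r, Pecam1 and Cdh5. Markers of other neural cells were mostly above it in every array, with 8 of 9 for astrocytes, 10 of 13 for oligodendrocytes and 7 of 10 for neurons. Gfap of mature astrocytes, Mag of myelin and the neuronal Syt1 and Stmn2 were the members of these lists below it in every array. Of 5 choroid plexus markers 3 were below it in every array, among them the defining Ttr. Of 8 mural and meningeal markers 4 were below it in every array (Dcn, Lum, Pdgfrb and Rgs5). The other 4 (Col1a1, Col1a2, Col3a1 and Acta2) were above it in every array.

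Most sterol enzymes had higher values in the cultures of the third ventricle, while the fatty acid enzymes lay on both sides of no difference. In the sterol branch 15 of 17 genes had a positive log2 difference (the third minus the lateral ventricle), against 45.4% of all genes, and the median was 0.23, a 1.18-fold difference, against -0.02 over all genes. In the fatty acid branch 5 of 9 were positive and the median was 0.05. None of the 34 members passed the test on its own: limma called 0 of 34 at an adjusted p below 0.05, where it called 46 of 19938 genes (0.231%; 0.145% higher and 0.0853% lower in the cultures of the third ventricle). At an unadjusted p below 0.05 there were 10 members higher and 1 lower in the cultures of the third ventricle, where all genes had 6.21% higher and 6.43% lower. In 9 of the 17 sterol enzymes every array of the third ventricle lay above every lateral array, which held for 7.77% of all genes. Of the fatty acid enzymes 0 of 9 did so and 1, Fasn, lay entirely below, as 9.24% of all genes did. In whole cultures, fewer cells of a type and less RNA per cell cannot be told apart.

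**Figure D1:**
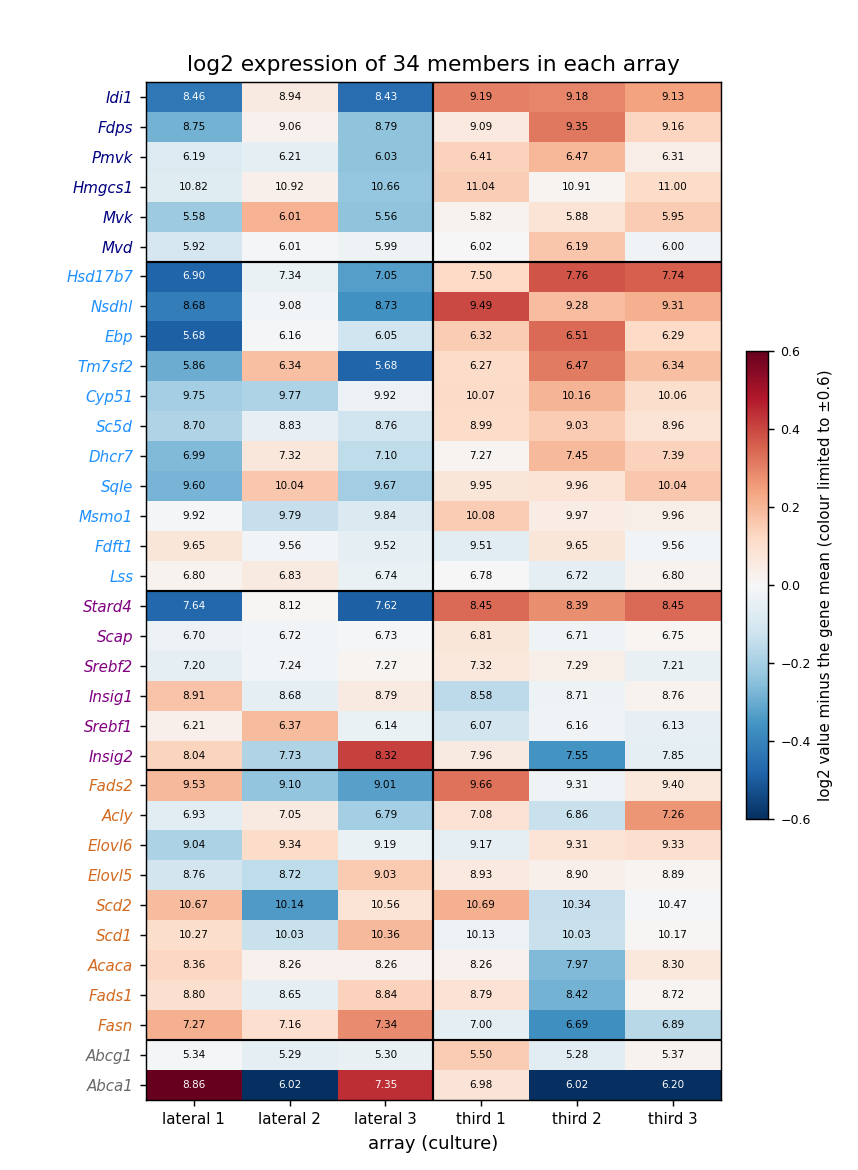
Log2 expression of the 34 measured members (rows, grouped from top to bottom as mevalonate steps, squalene to cholesterol, sterol sensing and transport, fatty acid synthesis and sterol export) in the 6 arrays (columns). Numbers are log2 values and colour is the value minus the gene's mean, limited to ±0.6. Most sterol enzymes are blue in lateral ventricle arrays 1 and 3, near white in lateral ventricle array 2 and red in the 3 arrays of the third ventricle, while the fatty acid rows show no such split.

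The mevalonate steps make the isoprenoid units from which sterols are built. Idi1, the isomerase that makes the reactive isoprenoid unit, had log2 values of 8.46, 8.94 and 8.43 in the lateral arrays (replicates 1, 2 and 3, the order kept throughout) and of 9.19, 9.18 and 9.13 in those of the third ventricle. Every array of the third ventricle was above every lateral one, and lateral ventricle array 2 was the nearest to them. Its mean went from 8.61 ± 0.28 to 9.17 ± 0.03 (SD, n = 3), a difference of 0.56 (SE 0.14, 95% interval 0.23 to 0.89, adjusted p = 0.238). A second probe set of Idi1 had the same pattern, with 8.05, 8.52 and 7.99 in the lateral arrays, 8.85, 8.78 and 8.74 in the others, and a difference of 0.60.

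Fdps, the farnesyl diphosphate synthase, had log2 values of 8.75, 9.06 and 8.79 in the lateral arrays and 9.09, 9.35 and 9.16 in those of the third ventricle. The groups did not overlap, but lateral ventricle array 2 lay just below the lowest array of the third ventricle. The difference was 0.34 (SE 0.12, adjusted p = 0.340). For Pmvk, the phosphomevalonate kinase, the values were 6.19, 6.21 and 6.03 against 6.41, 6.47 and 6.31, again without overlap, a difference of 0.26 (SE 0.10, adjusted p = 0.356). Hmgcs1, the synthase that makes HMG-CoA, lay at 10.82, 10.92 and 10.66 against 11.04, 10.91 and 11.00. Its groups overlapped through lateral ventricle array 2, and the difference of 0.19 (95% interval -0.05 to 0.42) did not pass (adjusted p = 0.495). The mevalonate kinase Mvk and the decarboxylase Mvd differed by 0.17 and 0.10, both with overlapping groups.

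From squalene to cholesterol the differences were largest for Hsd17b7 and Nsdhl, which act together in trimming methyl groups from the sterol ring. Hsd17b7, the ketosterol reductase of that step, lay at 6.90, 7.34 and 7.05 in the lateral arrays and at 7.50, 7.76 and 7.74 in the arrays of the third ventricle. The groups did not overlap. The means were 7.10 ± 0.23 and 7.67 ± 0.15 (SD, n = 3), and the difference of 0.57 (SE 0.14, 95% interval 0.25 to 0.89), or 1.48-fold, had an adjusted p of 0.214. Nsdhl, the sterol dehydrogenase of the same step, had 8.68, 9.08 and 8.73 against 9.49, 9.28 and 9.31. It too had no overlap, with a difference of 0.53 (SE 0.13, 95% interval 0.23 to 0.83, adjusted p = 0.216). Another gene of that step, the methylsterol oxidase Msmo1, differed by 0.15 (95% interval -0.06 to 0.36, adjusted p = 0.533), although its groups did not overlap either.

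Ebp, the sterol isomerase, had log2 values of 5.68, 6.16 and 6.05 in the lateral arrays and 6.32, 6.51 and 6.29 in those of the third ventricle, a difference of 0.41 (SE 0.14, adjusted p = 0.327). Cyp51, the lanosterol demethylase, lay at 9.75, 9.77 and 9.92 against 10.07, 10.16 and 10.06, a difference of 0.28 (SE 0.09, adjusted p = 0.322). Neither gene's groups overlapped, and in Cyp51 lateral ventricle array 2 was not the highest of its group. The sterol desaturase Sc5d also had no overlap, at a difference of 0.23 (SE 0.09, adjusted p = 0.356). The sterol reductase Tm7sf2 differed by 0.40 (adjusted p = 0.379), Dhcr7, the last reductase, by 0.23 and the squalene epoxidase Sqle by 0.21, all with overlap.

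The exceptions were Fdft1, the squalene synthase at the branch point into sterols, and Lss, the lanosterol synthase. Fdft1 had log2 values of 9.65, 9.56 and 9.52 against 9.51, 9.65 and 9.56, a difference of -0.01 (95% interval -0.22 to 0.20), and Lss differed by -0.02 (-0.22 to 0.18). A second probe set of Fdft1 differed by 0.10, and under cyclic loess the sign of Lss turned (0.0026). These intervals leave out differences as large as those of Idi1, Nsdhl and Hsd17b7.

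Promoter sequences are shown for the 3 sterol enzymes with the lowest p, in each of which the groups did not overlap. Sequences are also shown for Hmgcs1, the sterol enzyme with a match to the longer sterol element, and for Fasn, the fatty acid enzyme with the lowest p. They are the 250 bases before the RefSeq gene start on build GRCm38.p6, 5′ to 3′ on the gene's strand. Capitals mark the letters CCAAT, which the factor NF-Y binds beside SREBP in many sterol genes, on either strand (ATTGG on the other), and in Hmgcs1 also TCACCCCAC, a match to the sterol element searched as TCACNCCAC. The windows are chr13:119690101-119690350 on the + strand for Hmgcs1, chr13:8885356-8885605 on the + strand for Idi1, chrX:72918271-72918520 on the + strand for Nsdhl, chr1:169969206-169969455 on the - strand for Hsd17b7 and chr11:120824548-120824797 on the - strand for Fasn.
Hmgcs1: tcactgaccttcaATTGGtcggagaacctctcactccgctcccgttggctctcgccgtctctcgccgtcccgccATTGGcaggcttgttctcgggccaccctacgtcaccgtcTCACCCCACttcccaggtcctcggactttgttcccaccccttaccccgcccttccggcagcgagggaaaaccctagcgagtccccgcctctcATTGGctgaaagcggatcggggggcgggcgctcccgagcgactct
Idi1: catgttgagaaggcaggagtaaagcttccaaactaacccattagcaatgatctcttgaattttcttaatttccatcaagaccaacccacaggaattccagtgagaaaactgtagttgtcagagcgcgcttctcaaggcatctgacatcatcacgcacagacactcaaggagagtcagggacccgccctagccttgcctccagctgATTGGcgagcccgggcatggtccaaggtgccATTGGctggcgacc
Nsdhl: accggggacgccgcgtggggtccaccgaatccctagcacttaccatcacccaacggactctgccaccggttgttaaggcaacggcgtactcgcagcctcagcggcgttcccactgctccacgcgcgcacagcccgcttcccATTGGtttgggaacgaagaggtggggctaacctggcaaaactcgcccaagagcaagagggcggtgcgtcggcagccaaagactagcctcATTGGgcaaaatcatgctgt
Hsd17b7: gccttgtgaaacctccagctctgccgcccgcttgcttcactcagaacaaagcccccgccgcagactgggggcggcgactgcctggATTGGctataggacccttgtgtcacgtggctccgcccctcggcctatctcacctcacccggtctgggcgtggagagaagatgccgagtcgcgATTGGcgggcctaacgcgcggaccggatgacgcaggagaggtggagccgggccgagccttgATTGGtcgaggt
Fasn: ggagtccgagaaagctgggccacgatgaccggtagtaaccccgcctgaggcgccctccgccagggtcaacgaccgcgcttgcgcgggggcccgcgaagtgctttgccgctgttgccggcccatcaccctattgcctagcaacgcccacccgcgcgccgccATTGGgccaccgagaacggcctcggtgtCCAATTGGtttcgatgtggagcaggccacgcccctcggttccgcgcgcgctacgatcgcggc

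RefSeq windows were found for 26 of the 34 measured members. CCAAT lay on either strand in at least 1 window of all 14 sterol enzymes that had any, in 2 of 6 fatty acid enzymes (Fasn and Elovl5), in 4 of 5 genes of sterol sensing, and in 37.5% of all 27025 genes with windows of that length. By window, the shares were 82.4% of 17 for the sterol enzymes and 33.8% of 32851 overall. Hmgcs1 has it at 3 places, the last 45 bases before the start, and the sterol element 137 bases before it. Idi1 and Nsdhl hold it at 2 places and Hsd17b7 at 3. In Fasn 2 of its 3 matches overlap, on opposite strands. Lss, with its difference of -0.02, holds CCAAT too. The longer sterol element TCACNCCAC was found in Hmgcs1 only among the members, and in 1.05% of all windows. Its shorter form TCACNCCA was found in Hmgcs1, Msmo1 and Srebf2 among the members, and in 3.67% of all windows. A match is a string of letters and no measured binding.

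Among the genes of sterol sensing and transport, Stard4 had the largest difference (of all members only Abca1 differed by more), and its adjusted p was the lowest of all members. It encodes a carrier that moves cholesterol through the cytosol. Its log2 values were 7.64, 8.12 and 7.62 in the lateral arrays and 8.45, 8.39 and 8.45 in the arrays of the third ventricle. The groups did not overlap, and the arrays of the third ventricle lay within 0.06 of each other while the lateral ones spanned 0.50. The difference was 0.64 (SE 0.14, 95% interval 0.31 to 0.97), or 1.56-fold, with an adjusted p of 0.184.

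The regulators themselves did not share that pattern. Srebf2 had 7.20, 7.24 and 7.27 against 7.32, 7.29 and 7.21, a difference of 0.03 (95% interval -0.16 to 0.23), and Scap 0.04 (-0.16 to 0.24). Srebf1 lay at 6.21, 6.37 and 6.14 against 6.07, 6.16 and 6.13, a difference of -0.12 (-0.34 to 0.10). Insig1, which SREBP itself turns on as a feedback brake, had 8.91, 8.68 and 8.79 against 8.58, 8.71 and 8.76. It differed by -0.11 (95% interval -0.34 to 0.12, adjusted p = 0.709), with groups that overlapped. Insig2 lay at 8.04, 7.73 and 8.32 against 7.96, 7.55 and 7.85, a difference of -0.24 (-0.64 to 0.15). The transcript level does not show how much of the SREBP proteins was cleaved and active.

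**Figure D2:**
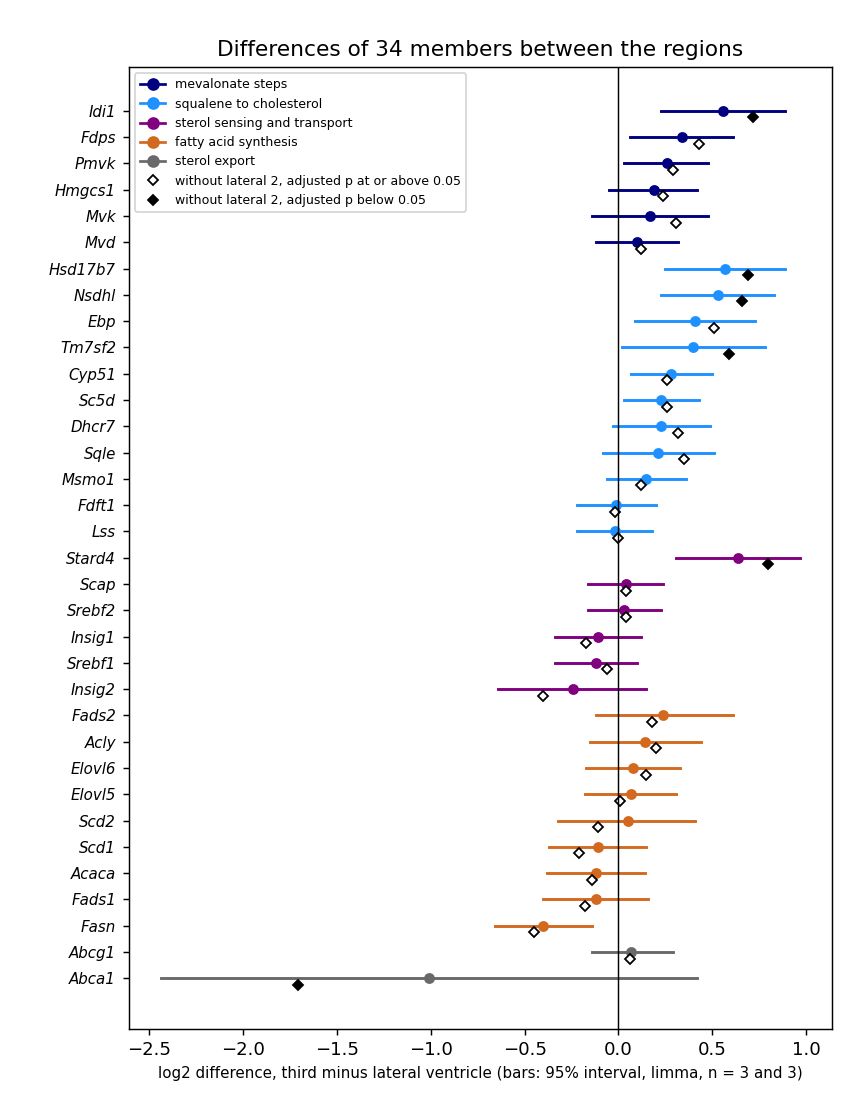
Log2 differences (the third minus the lateral ventricle, horizontal axis) of the 34 members, with 95% intervals from limma over 3 and 3 arrays as bars. Diamonds give the difference without lateral ventricle array 2, filled where the adjusted p was then below 0.05. Of the sterol enzymes 15 of 17 lie right of 0, the fatty acid enzymes lie on both sides, and Abca1 has an interval from -2.44 to 0.42.

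Fatty acid enzymes were spread around 0. Fasn, the synthase that builds palmitate, had the lowest p among them. It lay at 7.27, 7.16 and 7.34 in the lateral arrays and at 7.00, 6.69 and 6.89 in those of the third ventricle. Every array of the third ventricle was below every lateral one. The means were 7.26 ± 0.09 and 6.86 ± 0.16 (SD, n = 3), and the difference of -0.40 (SE 0.11, 95% interval -0.66 to -0.14) had an adjusted p of 0.269. Without lateral ventricle array 2 it was -0.45 (adjusted p = 0.0599; range over all alternatives 0.0599 to 0.672), and from that array alone -0.31.

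Acaca, the carboxylase that supplies malonyl-CoA to Fasn, had log2 values of 8.36, 8.26 and 8.26 against 8.26, 7.97 and 8.30, a difference of -0.12 (95% interval -0.38 to 0.14). Its second probe set also differed by -0.12. Acly makes the acetyl-CoA that both branches use. It had 6.93, 7.05 and 6.79 against 7.08, 6.86 and 7.26, a difference of 0.14 (-0.15 to 0.44). The desaturase of polyunsaturated fatty acids Fads2 lay at 9.53, 9.10 and 9.01 against 9.66, 9.31 and 9.40, a difference of 0.24 (-0.12 to 0.61), and its neighbour in the same route, Fads1, differed by -0.12. All 4 had overlapping groups.

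The stearoyl-CoA desaturases, which make monounsaturated fatty acids, did not differ beyond their spread. Scd1 had 10.27, 10.03 and 10.36 against 10.13, 10.03 and 10.17 (difference -0.11, 95% interval -0.37 to 0.15). Scd2 had 10.67, 10.14 and 10.56 against 10.69, 10.34 and 10.47 (0.05, -0.32 to 0.41), and the sign of Scd2 turned with repeated quantile normalization. In both genes lateral ventricle array 2 was the lowest of its group. Scd1 and Scd2 are close paralogs, so their values are uncertain as far as probes of each also bind the other, which was not tested. The elongases Elovl5 and Elovl6 differed by 0.07 and 0.08.

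Set against each other, the branches separated by region only in part. Relative to each gene's mean, the lateral arrays 1, 2 and 3 had sterol enzyme medians of -0.22, -0.01 and -0.20, and those of the third ventricle 0.11, 0.18 and 0.12. That of the fatty acid enzymes was 0.10, -0.06 and 0.08 against 0.05, -0.14 and 0.02. The sterol median minus the fatty acid median was thus -0.32, 0.04 and -0.28 in the lateral arrays and 0.06, 0.32 and 0.10 in the others, so that lateral ventricle array 2 lay close to the lowest array of the third ventricle. The sterol median kept its sign under every alternative (0.15 to 0.31). The fatty acid median did not, and was -0.0046 with repeated quantile normalization, -0.02 with array weights, -0.11 when lateral ventricle array 2 was left out and -0.05 when array 1 of the third ventricle was.

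**Figure D3:**
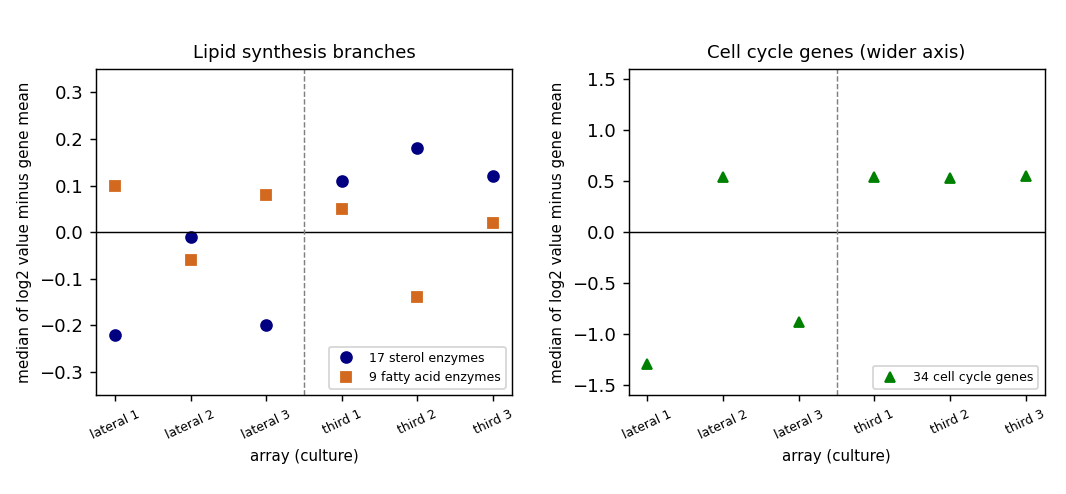
Median over a list of the log2 value minus each gene's mean (vertical axes), in each array, for the 17 sterol and 9 fatty acid enzymes (left) and for 34 cell cycle genes (right, on a wider axis). Sterol medians lie between -0.22 and -0.01 in the lateral arrays and between 0.11 and 0.18 in those of the third ventricle; the cell cycle median of lateral ventricle array 2 is 0.54, level with the third ventricle.

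Lateral ventricle array 2 decided which members passed. It was singled out from these same values as the lateral array nearest to the third ventricle. A fit without it thus favours larger differences and a smaller lateral spread, and its adjusted p-values are likely too low. Without lateral ventricle array 2, limma called 6 of the 34 members, where it called 8.25% of all genes (4.37% higher and 3.88% lower). Stard4 (0.80, adjusted p = 0.00177), Idi1 (0.72, adjusted p = 0.00271), Nsdhl (0.66, adjusted p = 0.00793), Hsd17b7 (0.69, adjusted p = 0.0102) and Tm7sf2 (0.59, adjusted p = 0.0154) were higher in the cultures of the third ventricle. Abca1 was lower (-1.71, adjusted p = 0.0477). Over all alternatives their highest adjusted p was 0.576 for Stard4, 0.652 for Idi1, 0.581 for Nsdhl, 0.652 for Hsd17b7, 0.963 for Tm7sf2 and 0.857 for Abca1. With array weights, which count lateral ventricle array 2 least, Stard4 alone of the members passed (adjusted p = 0.04), among 0.792% of all genes. Set alone against the third ventricle, with no lateral replicate, lateral ventricle array 2 left a sterol median of 0.15 with 14 of 17 positive. The fatty acid median was 0.02 with 5 of 9 positive, and all genes had a median of -0.02 with 44.4% positive. Idi1 then differed by 0.23, Nsdhl by 0.28, Hsd17b7 by 0.32 and Stard4 by 0.31, but Tm7sf2 by 0.03, Mvk by -0.13 and Sqle by -0.06.

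That array was the highest of the lateral group in 14 of the 17 sterol enzymes, against 39.6% of all genes, and in 2 of the 9 fatty acid enzymes. The lateral SD exceeded that of the third ventricle in 15 of 17 sterol enzymes (66.8% of all genes). The median SDs were 0.17 and 0.07 for the sterol enzymes and 0.15 and 0.10 over all genes.

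Other gene lists also varied between these arrays, though not all in the same way. Of 34 measured cell cycle genes all had a positive difference, 0 passed, and the median was 1.11; without lateral ventricle array 2, 32 passed. Their median relative to each gene's mean was -1.29, 0.54 and -0.88 in the lateral arrays and 0.53 to 0.55 in the others, and their summed linear signal was 5507 to 18447 in the lateral and 17921 to 18312 in the third ventricle cultures. Against lateral ventricle array 2 alone the cell cycle median was -0.02, while the sterol median was 0.15. The summed signal of 13 oligodendrocyte markers was 1629 to 1972 in the lateral and 1300 to 1346 in the third ventricle cultures (2 of 13 positive, Pdgfra passed). That of 9 astrocyte markers was 2102 to 5246 and 3118 to 3646 (3 of 9 positive). Bright genes weigh most in such sums, and those of the astrocyte list went both ways, with Apoe at -1.35 and Sparcl1 at 0.94. Relative to each gene's mean, the oligodendrocyte medians were 0.34, 0.21 and 0.10 in the lateral arrays and -0.14, -0.16 and -0.06 in the others. Lateral ventricle array 2 thus stayed with its own group in that list. The astrocyte medians were 0.45, -0.29 and -0.07 against 0.03, -0.08 and -0.08. Of 10 neuronal markers 4 were positive and 0 passed, with a median of -0.05 and differences from -1.63 (Dcx) to 0.60 (Gap43). Of 12 neural stem cell markers 4 were positive and 0 passed, with a median of -0.04 and differences from -0.37 (Prom1) to 0.53 (Nes). The part of these lists in the sterol difference was not tested.

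Abca1, the pump that loads cholesterol onto apolipoproteins, varied more than any other member. It lay at 8.86, 6.02 and 7.35 in the lateral arrays and at 6.98, 6.02 and 6.20 in those of the third ventricle. The groups overlapped, since lateral ventricle array 2 was as low as the lowest array of the third ventricle, and the lateral arrays spanned 2.84. The difference was -1.01 (SE 0.62, 95% interval -2.44 to 0.42, adjusted p = 0.547); it was -0.29 without lateral ventricle array 1 and 0.38 from lateral ventricle array 2 alone. Abcg1, the exporter to lipoprotein particles, had 5.34, 5.29 and 5.30 against 5.50, 5.28 and 5.37, a difference of 0.07 (-0.14 to 0.29), close above the background gauge.

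**Figure D4:**
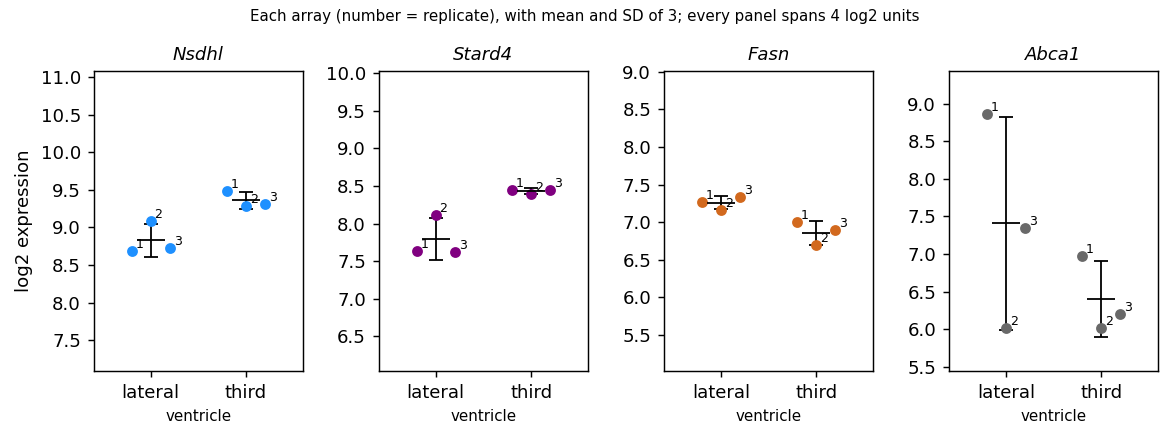
Log2 expression (vertical axes, each spanning 4 log2 units) of Nsdhl, Stard4, Fasn and Abca1 in each array, with the replicate number beside each point and the mean and SD of 3 as black lines. Nsdhl and Stard4 lie higher and Fasn lower in every array of the third ventricle, while Abca1 ranges from 6.02 to 8.86 within the lateral group.

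Further genes of the pathway gave no call either. Of 10 measured genes of isoprenoid side branches and ketone use 0 passed, 7 were positive and the median was 0.06. The lowest p were those of Nus1 (-0.50, SE 0.16, adjusted p = 0.325), a subunit of the enzyme that makes dolichol, and Lbr (0.36, SE 0.14, adjusted p = 0.366), a sterol reductase of the nuclear envelope with the same activity as Tm7sf2. Nus1 had 8.97, 8.64 and 9.29 in the lateral arrays and 8.61, 8.36 and 8.45 in the others, without overlap and with lateral ventricle array 2 the lowest of its group. Lbr had 7.30, 7.85 and 7.66 in the lateral arrays and 8.03, 7.91 and 7.95 in the others, without overlap and again with lateral ventricle array 2 the highest of its group.

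Of 21 genes of sterol uptake, storage, breakdown and sensing 0 passed, 7 were positive and the median was -0.03. Lrp1, an endocytic receptor for apolipoprotein E, came nearest, with 6.82, 6.58 and 6.83 in the lateral arrays and 6.10, 5.83 and 6.10 in those of the third ventricle. The groups did not overlap, and the difference was -0.73 (SE 0.12, 95% interval -1.00 to -0.46, adjusted p = 0.0765; 0.00439 to 0.332 over the alternatives). It was -0.57 from lateral ventricle array 2 alone. Cyp7b1, an oxysterol hydroxylase, had 5.08, 4.74 and 4.54 in the lateral arrays and 5.39, 5.36 and 5.10 in the others, without overlap. It differed by 0.50 (SE 0.15, adjusted p = 0.297) and lay above the background gauge in 3 of 6 arrays.

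Among 33 further fatty acid genes 0 passed, 15 were positive and the median was -0.09. Lpin1, a phosphatidate phosphatase and known SREBP target, lay at 6.71, 6.63 and 7.05 in the lateral arrays and at 7.53, 7.53 and 7.56 in those of the third ventricle, with no overlap. Its difference of 0.74 (SE 0.12, 95% interval 0.46 to 1.02, adjusted p = 0.0790; 0.0141 to 0.375 over the alternatives) was larger from lateral ventricle array 2 alone (0.91). Elovl7, an elongase of long saturated fatty acids, had 8.14, 7.09 and 7.64 against 6.20, 5.99 and 6.40, a difference of -1.43 (SE 0.24, 95% interval -1.99 to -0.86, adjusted p = 0.0864; 0.00102 to 0.421 over the alternatives). Without lateral ventricle array 2, where 4.37% of all genes passed as higher and 3.88% as lower, these lists had 1 of 10, 4 of 21 and 3 of 33 genes that passed. Lpin1 was higher, and Elovl7, Lrp1, Nus1, Osbp, Npc2, Vldlr and Acss2 were lower.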

How the data were processed

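Total RNA of 6 cultures was extracted with Trizol and amplified with the NuGEN WT-Ovation Pico system from 500 pg to 50 ng, per the labels' protocols. The deposited table holds 1 log2 value for each probe set and array. Per the submitters' processing notes, the authors made it with Affymetrix Expression Console 1.1 by RMA (background correction, normalization across arrays, summary of probes); its settings and the genome build were not given in the sources used here. RMA compresses dim probe sets, so their differences are understated, and the number of arrays limits the precision.

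Of 35556 probe sets, 21789 had 1 gene symbol in the platform annotation, 1621 had several and 12146 are unnamed here. Genes were compared with limma 3.58.1 in R 4.3.3 (lmFit, eBayes with a prior of 4.04 degrees of freedom, Benjamini-Hochberg adjustment over 19938 genes, threshold 0.05), arrays being grouped by title. With 3 arrays a group, an exact two-sided permutation test reaches 0.1 at best. The titles call the arrays of a region biological replicates, but the labels do not say whether they came from different animals, and the p-values rest only on how much these cultures vary. The limma fit was tested on simulated data in which every array varied alike. No array there deviated as lateral ventricle array 2 does here. The members and lists were chosen with earlier results of these data known, and list medians carry no p. Values in every array are given for the up to 4 members of each role with the lowest p and for Srebf1, Srebf2, Insig1, Scd1, Scd2, Abca1 and Abcg1, and from each further list for the 2 with the lowest p; other genes named were chosen after their values were seen. Alternatives covered the choice of probe set, leaving out the dimmest 40% of genes, normalization, prior, array weights, replicate block and each array left out; the fit with lateral ventricle array 2 as the only lateral array was added after seeing the data and assumes that it varies like the others.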

Additional observations from a re-analysis of the deposited data

How the results depend on the processing

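Over all genes, array weights called 158, and leaving out 1 array gave 4 to 1644 calls. Members called numbered 1 with array weights and 0 to 6 with 1 array left out. With 1 array left out, the sterol median ranged from 0.20 to 0.31, the fatty acid median from -0.11 to 0.08 and their difference from 0.14 to 0.42; with lateral ventricle array 2 as the only lateral array the sterol median was 0.15. Of uncalled members near 0, the sign turned for Fdft1 with the mean of its probe sets (0.05), Scd2 with quantile normalization (-0.0046) and array weights (-0.02), and Lss with cyclic loess (0.0026). With 1 array left out it turned for Fdft1 (0.03 without array 1 of either region), Lss (0.0019) and Scd2 (-0.11 and -0.05). With lateral ventricle array 2 as the only lateral array it turned for Mvk (-0.13), Fdft1 (0.01), Sqle (-0.06), Insig1 (0.0024), Insig2 (0.06), Scd1 (0.08), Elovl6 (-0.07) and Abca1 (0.38). The cause was not tested. The replicate block gave 57 calls and 0 members. Same-numbered arrays deviated together at r = 0.24, 0.111 and 0.0679, and 6 of 6 arrays correlated best with their own number. Values were centred within each group, so these 6 matches are not independent. They are a weak hint from the data and not the design. The block changed no call of a member. All members lay above the background gauge, Abcg1 only narrowly, and the arrays are few.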

Other observations

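Apoe, the apolipoprotein that carries cholesterol exported by ABCA1, was chosen for a closer look after the values were seen. It lay at 11.11, 8.27 and 9.58 in lateral ventricle arrays 1, 2 and 3 and at 8.81, 8.13 and 7.96 in those of the third ventricle, a difference of -1.35 (SE 0.61, adjusted p = 0.409 by limma). Without lateral ventricle array 2 the difference of Apoe was -2.04 (adjusted p = 0.021), and from that array alone it was 0.04. Abca1 had its highest value in lateral ventricle array 1 as well, then lateral ventricle array 3, and both genes had a lateral SD of 1.42.

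The VLDL receptor gene Vldlr, a receptor for apolipoprotein E and reelin, had 9.23, 8.05 and 9.61 against 8.50, 8.08 and 8.61. Lateral ventricle array 2 was again the lowest of its group, and the difference of Vldlr was -0.57 (95% interval -1.40 to 0.26, adjusted p = 0.562). It was -1.03 without that array (adjusted p = 0.0113) and turned to 0.35 from that array alone. Acss2, which makes acetyl-CoA from acetate, had 7.14, 6.36 and 7.25 against 6.15, 6.54 and 6.59, a difference of -0.49 (adjusted p = 0.433). It was -0.77 without lateral ventricle array 2 (adjusted p = 0.016) and 0.07 from that array alone.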
